A study of Mus musculus with 2 samples.

Results

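The neuregulins and the ErbB receptors form a growth factor system of 9 genes here, 5 ligand genes (Nrg1, Nrg2, Nrg3, Nrg4 and Hbegf) and 4 receptor genes (Egfr, Erbb2, Erbb3 and Erbb4). They were taken by symbol from the 43346 Ensembl genes listed, 21474 of them protein-coding, and all 9 were found. The samples were total RNA of whole heart from mouse embryos of the strain B6NCrl at embryonic day 13.5, with both sexes pooled and no treatment or mutation. The 2 libraries, replicates 1 and 2, are separate tissue samples under a single donor entry, and the number of embryos behind each is unknown. Levels are given as TPM, a measure corrected for transcript length and sequencing depth, which allows genes to be set side by side. Heart identity was checked with 7 cardiomyocyte markers, which had a median of 1746 TPM, among them Actc1 (cardiac actin) at 8858 and 10485 TPM in replicates 1 and 2.

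ErbB receptors are tyrosine kinases that act in pairs. ErbB2 binds no known ligand and serves as the preferred partner, ErbB3 binds neuregulins but has little kinase activity of its own, and ErbB4 both binds neuregulins and signals. In the embryonic heart Nrg1 is made by the endocardium and acts on ErbB2 and ErbB4 in the neighbouring muscle to drive trabeculation, while HB-EGF, a ligand of EGFR and ErbB4, is known for its part in the remodelling of the valves. Since this is bulk tissue, fewer cells of a type and less RNA per cell cannot be told apart, and the level of a gene does not show which cells expressed it.

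The Erbb4 gene (ENSMUSG00000062209, chromosome 1, 68032186 to 69108059, minus strand, GRCm38) is spliced into forms with different signalling properties, and the exons that tell these apart are shown first (GENCODE M21 transcripts, GRCm38) because the transcript results turn on them. A pair of mutually exclusive exons sets the stretch just outside the membrane. The JM-a form can be cleaved by ADAM17 to release the receptor's outer part, whereas the JM-b form is not cleaved there and is the form known from heart muscle. Capitals mark the alternative exon, 75 nt in JM-a (68290243 to 68290317) and 45 nt in JM-b (68290439 to 68290483), and the 21 nt of the flanking exons on each side are in lower case.
JM-a: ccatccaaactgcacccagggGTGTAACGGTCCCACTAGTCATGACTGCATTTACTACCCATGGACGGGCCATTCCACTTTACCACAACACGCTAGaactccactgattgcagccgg
JM-b: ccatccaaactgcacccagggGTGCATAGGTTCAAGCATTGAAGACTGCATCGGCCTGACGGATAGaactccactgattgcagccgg

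A cassette exon of 48 nt inside the cell (68043908 to 68043955) is present in the CYT-1 form and skipped in CYT-2. It encodes a docking site for PI3-kinase and a motif bound by WW-domain proteins. It is shown in capitals with 21 nt of each neighbouring exon.
CYT-1: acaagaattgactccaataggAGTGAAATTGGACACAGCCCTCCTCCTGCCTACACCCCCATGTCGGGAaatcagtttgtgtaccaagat

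Egfr (ENSMUSG00000020122, chromosome 11, 16752203 to 16918158, plus strand) has a long model with 28 exons and a coding region of 3630 nt, and a short model with 16 exons and 1965 coding nt. The short model runs on past the splice site at which the long one joins the exon that begins the membrane-spanning segment, so it holds neither that segment nor the kinase. Both are shown from the same 21 nt in lower case. Capitals mark the 43 nt that follow, which in the short model end in its stop codon (16887186 to 16887228) and in the long one open the next exon (16889913 to 16889955).
Egfr short model: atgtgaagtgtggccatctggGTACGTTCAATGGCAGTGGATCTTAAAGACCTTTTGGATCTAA
Egfr long model: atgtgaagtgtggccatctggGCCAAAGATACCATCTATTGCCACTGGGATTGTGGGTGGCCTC

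Of the 9 genes, 7 reached 1 TPM in both libraries, where 57.3% of all protein-coding genes did. The exceptions were Nrg2 and Nrg3. At 5 TPM in both libraries only Hbegf and Erbb2 (2 of 9) passed, beside 43.8% of protein-coding genes. The median over all 9 was 2.24 TPM, held by Nrg1, and 3.07 TPM over all protein-coding genes. Summed over the receptors the level was 47.0 TPM in replicate 1 and 51.8 TPM in replicate 2, and summed over the 5 ligands 11.8 and 13.7 TPM. The receptor sum was therefore 3.98-fold and 3.77-fold the ligand sum in the 2 libraries. Erbb2, which binds no known ligand, held 79.5% and 77.5% of the receptor sum. The ligand sum counts Nrg1 on 1 transcript model and leaves out 6 other EGF-family ligand genes, which summed to 5.60 and 6.45 TPM.

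Erbb2, the gene of the ligandless partner (ENSMUSG00000062312, chromosome 11, 98412470 to 98437716), led the family. It measured 37.4 and 40.2 TPM in replicates 1 and 2, from 5321 and 5341 estimated reads. It held 79.5% and 77.5% of the summed receptor TPM, and 85.5% of protein-coding genes had a lower mean level.

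Erbb4 was the next receptor gene, with 4.81 and 6.66 TPM in replicates 1 and 2, from 651 and 712 reads. Erbb2 exceeded it by 7.78-fold and 6.03-fold within the 2 libraries (log2 ratio 2.78 ± 0.26, SD, n = 2). In each library the credibility intervals of TPM deposited for both genes lay apart, which is the rule used here to call 2 genes different. A retained-intron model without a coding region held 9.90% and 22.3% of the Erbb4 level in replicates 1 and 2. The log2 ratio of Erbb4, replicate 1 over replicate 2, was −0.47 by TPM and −0.08 by read counts scaled for depth. Over all genes with a mean of at least 50 reads, the median log2 ratio by TPM was −0.15. The part of the retained-intron model in the Erbb4 ratio was not tested.

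Erbb3, the neuregulin receptor with a weak kinase (ENSMUSG00000018166, chromosome 10, 128567523 to 128589652), followed with 2.84 and 3.37 TPM, from 492 and 546 reads. Erbb4 stood above it by 1.69-fold and 1.98-fold in TPM, and this pair was called. TPM divides by length, which was 6016 nt for Erbb3 but 4720 and 4003 nt for Erbb4 in replicates 1 and 2. The Erbb4 length rests in part on incomplete models described below and lies under the 12037 nt of its longest model. The intervals do not cover this, and the order with full-length Erbb4 models only was not tested. Erbb2 exceeded Erbb3 by 13.2-fold and 11.9-fold.

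Egfr, the receptor of HB-EGF and other EGF-type ligands, was lowest with 1.99 TPM in replicate 1 against 1.61 TPM in replicate 2, from 323 and 251 reads. Erbb3 exceeded Egfr by 1.43-fold and 2.09-fold, and the pair was not called, because the interval of Egfr in replicate 1 (1.88 to 3.70 TPM) contained that of Erbb3 (2.55 to 3.04 TPM). In replicate 2 alone the intervals lay apart. Erbb2 exceeded Egfr by 18.8-fold and 24.9-fold.

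Among the ligand genes Hbegf (ENSMUSG00000024486, chromosome 18, 36504927 to 36515805) was highest. It measured 8.65 and 9.69 TPM in replicates 1 and 2, from 576 and 604 reads, and held 73.1% and 70.6% of the summed ligand TPM. Hbegf exceeded Nrg1 by 4.30-fold and 3.94-fold (log2 ratio 2.04 ± 0.09, SD, n = 2), and this pair was called. Nrg1 was counted on the exons of 1 transcript model only, as described below, and the intervals do not cover this.

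Nrg1, the ligand of the endocardium (ENSMUSG00000062991, chromosome 8, 31814551 to 32884029), measured 2.01 and 2.46 TPM, from 118 and 135 reads. Nrg4, a neuregulin that binds ErbB4 (ENSMUSG00000032311, chromosome 9, 55220222 to 55326844), measured 1.05 and 1.53 TPM. Nrg1 was thus 1.91-fold and 1.61-fold above Nrg4 on the TPM scale, but their intervals overlapped in both libraries and the pair was not called. By the deposited posterior mean TPM, an alternative estimate in the same files, the mean log2 ratio of Nrg1 over Nrg4 was 0.16, against 0.81 for TPM.

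Nrg3 (ENSMUSG00000041014, chromosome 14, 38368952 to 39473088) and Nrg2 (ENSMUSG00000060275, chromosome 18, 36017652 to 36197380), neuregulins known mainly from the nervous system, were close to 0. Nrg3 had 6 reads in replicate 1 and 1 read in replicate 2, with exact 95% Poisson intervals of 2.20 to 13.1 and 0.0253 to 5.57 reads. Nrg2 had 3 reads in replicate 1 and 2 reads in replicate 2, with intervals of 0.619 to 8.77 and 0.242 to 7.22 reads, which cover counting error only. Nrg3 lay above Nrg2 in replicate 1 and below it in replicate 2, so no order between them can be given. Nrg4 stood above Nrg3 with intervals apart in both libraries.

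**Figure D1:**
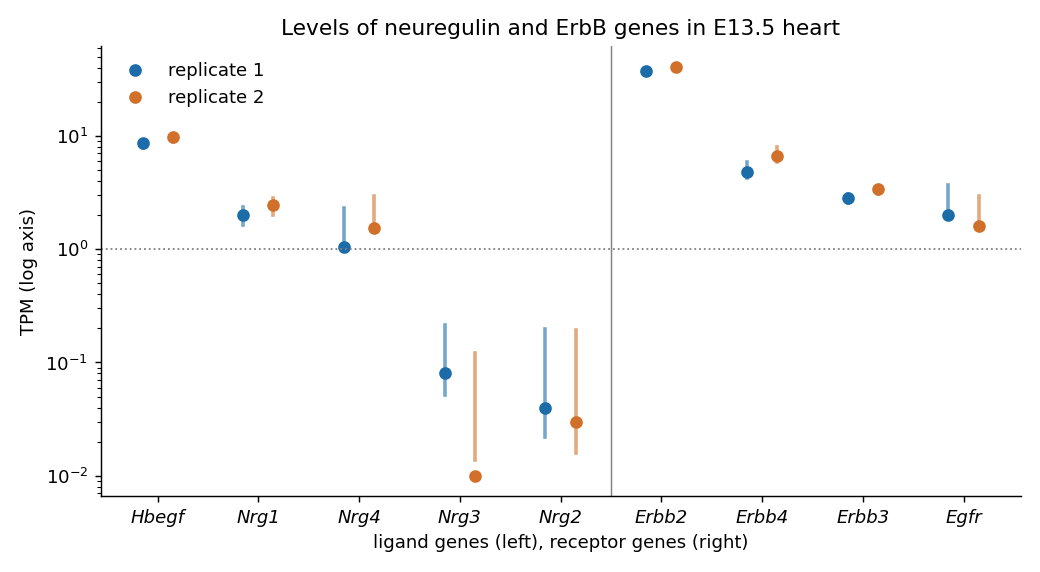
TPM on a log axis of the 5 ligand genes (left of the grey line) and the 4 receptor genes (right of it) in replicates 1 and 2, with points for the deposited TPM, bars for its credibility interval and a dotted line at 1 TPM. Erbb2 stands above every other gene at 37.4 and 40.2 TPM, Nrg3 and Nrg2 lie below 0.1 TPM, and the points of Nrg4 lie under their own bars.

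The intervals themselves need care in genes with many transcript models. The TPM of Nrg4 lay outside its own interval in both libraries, at 1.05 against 1.18 to 2.31 TPM in replicate 1 and 1.53 against 1.61 to 2.92 TPM in replicate 2. Nrg3 did so in replicate 2, where 0.01 TPM stood against 0.0137 to 0.121 TPM. Nrg4 was the 1 such gene among the 7 members at 1 TPM; of all protein-coding genes at 1 TPM, 4.43% lay outside in at least 1 library. The posterior mean that the interval surrounds was 1.72 and 2.24 TPM for Nrg4, and 2.75 and 2.22 TPM for Egfr, above the TPM of each in both libraries.

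For Nrg1 the quantification held 1 transcript model, whereas GENCODE M21 lists 18. The model in the files was 2103 nt long, and the M21 model of the same identifier covers 70.3% of the 2988 coding bases of the gene in M21. Of the M21 transcripts, 11 start more than 1 kb upstream of it. Reads from exons found only in those were not counted for Nrg1, so the values above are those of the model's exons, and the proportions of the neuregulin 1 types, which differ in their first exons, cannot be given. Hbegf and Erbb3 likewise had 1 model each.

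Erbb4 transcripts were led by the JM-b model. This model, which carries the 45 nt exon printed above, held 62.9% of the gene's TPM in replicate 1 and 56.0% in replicate 2. The 2 JM-a models together held 27.2% and 21.7%. Within transcripts that carry either exon, the JM-b share was 69.8% and 72.1% (71.0% ± 1.6, SD, n = 2), and it was 71.2% and 73.4% by posterior mean TPM.

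Of the models that reach the cytoplasmic exons, CYT-2 led. The JM-a model that skips the 48 nt exon held 24.9% and 19.9% of the gene, and the JM-a model that includes it 2.29% and 1.79%. The CYT-1 share of these models was 8.43% in replicate 1 and 8.25% in replicate 2 (8.34% ± 0.12, SD, n = 2). It was 10.3% and 9.02% by posterior mean TPM.

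These shares rest on incomplete models. The JM-b model has 19 exons and 2196 nt, none of them untranslated, and stops before the cytoplasmic exon. No model in the files thus joins JM-b to an end of the receptor, and the CYT shares were computed on the JM-a models. Reads from exons past the end of the JM-b model could be assigned to the JM-a models alone, whichever juxtamembrane exon their transcript carried. The CYT shares are therefore not specific to JM-a. The JM-a, CYT-2 model has 27 exons and 12037 nt, of which the last exon makes up 69.0%. The JM-b model was assigned 186 and 214 reads, or 84.6 and 97.6 reads per kb, and the JM-a, CYT-2 model 418 and 433 reads, or 34.8 and 36.0 per kb. By share of reads in place of TPM, the JM-a, CYT-2 model led and the JM-b model held 28.6% and 30.1%. Since only the JM-a models hold the long last exon, the share of reads cannot show which form led. The TPM shares rest on the same assignment of reads. Whether reads fell evenly along the 2 models was not tested, since read positions were not used here.

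**Figure D2:**
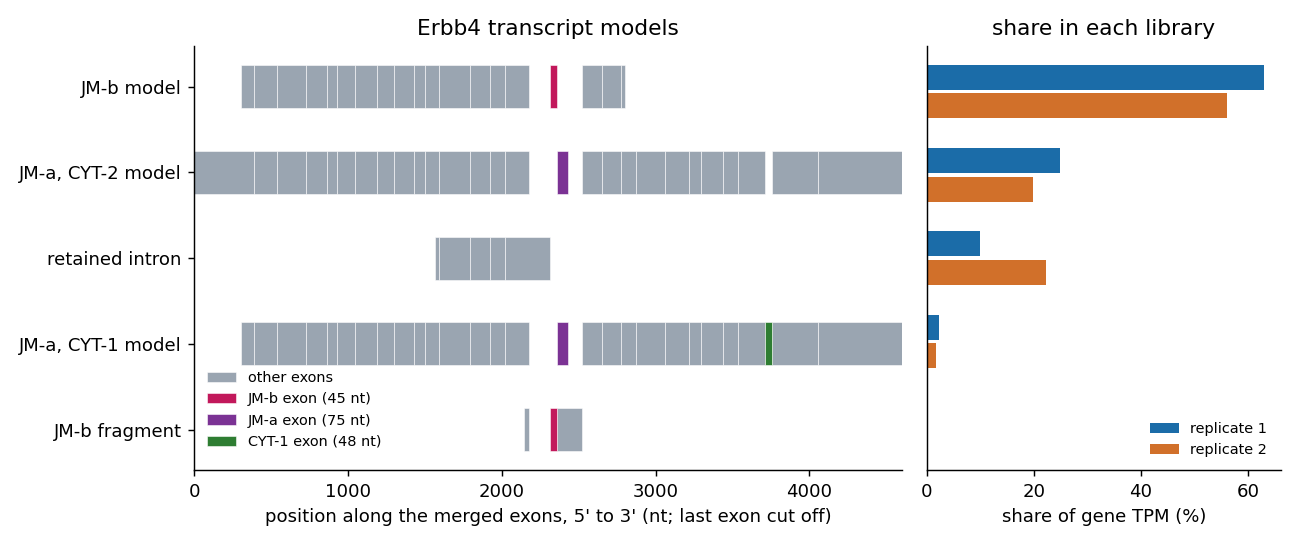
Left, the 5 Erbb4 models drawn to scale along their merged exons (nt, 5′ to 3′, with the last exon cut off), with the JM-b, JM-a and CYT-1 exons in colour. Right, the share of the gene's TPM (%) in replicates 1 and 2, where the JM-b model holds 62.9% and 56.0% and the model with the CYT-1 exon 2.29% and 1.79%.

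The remaining Erbb4 reads lay in a retained-intron model of 744 nt. It took 9 reads and 9.90% of TPM in replicate 1, and 26.2 reads and 22.3% in replicate 2, the largest change in share among the Erbb4 models. A fragment of 240 nt with the JM-b exon had no read in either library.

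Egfr was divided between its long and its short form. The short model, without a membrane-spanning segment, held 48.8% of TPM in replicate 1 and 60.8% in replicate 2. The long model held 40.7% and 39.2%. By estimated reads the long model led with 240 and 175 reads, against 80.9 and 76.2 for the short model, whose length is 2943 nt against 10208 nt for the long one. By posterior mean the short model still led, with 33.2% and 42.6%. The TPM intervals of the 2 models overlapped in both libraries, at 0.640 to 1.22 TPM for the short and 0.670 to 0.900 TPM for the long model in replicate 1. In replicate 2 they were 0.665 to 1.22 TPM for the short and 0.507 to 0.717 TPM for the long model.

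Erbb2 showed the least division among the members at 1 TPM with several models. Its full-length coding transcript of 27 exons held 94.97% in replicate 1 and 96.07% in replicate 2, and kept its lead by posterior mean and by reads. A further 4.35% and 3.06% lay in a processed transcript without a coding region.

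Nrg4 reads were assigned, in the estimate behind TPM, to models without a full coding region. The files list 13 models, and the leading one is annotated as a processed transcript and held 44.2% and 46.3%. The 2 protein-coding models had no estimated read in either library. By posterior mean the leading model held 14.4% and 19.2%, and the longer of the protein-coding ones 13.2% and 12.7%, so the estimates do not settle which of these models was present. Nrg4 was also the only member whose gene-level reads were not whole (46.6 and 59.8). Its exons overlap 368 bases of Fbxo22, a ubiquitin ligase subunit gene on the opposite strand with 2466 and 2751 reads (strand handling not given in the sources used here). How far these reads moved the value of Nrg4 was not tested.

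Of the 6 members with several models, 4 reached 1 TPM, and in 2 of these (Erbb2 and Erbb4) the same transcript passed 50% in both libraries. Among all genes with several models at 1 TPM, 71.4% did. The leading transcript was the same by TPM and by posterior mean in all 4, as in 96.3% of those genes. In Nrg2 the single model with reads rested on 3 and 2 reads and lost its lead by posterior mean. In Nrg3 the lead changed between the libraries.

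**Figure D3:**
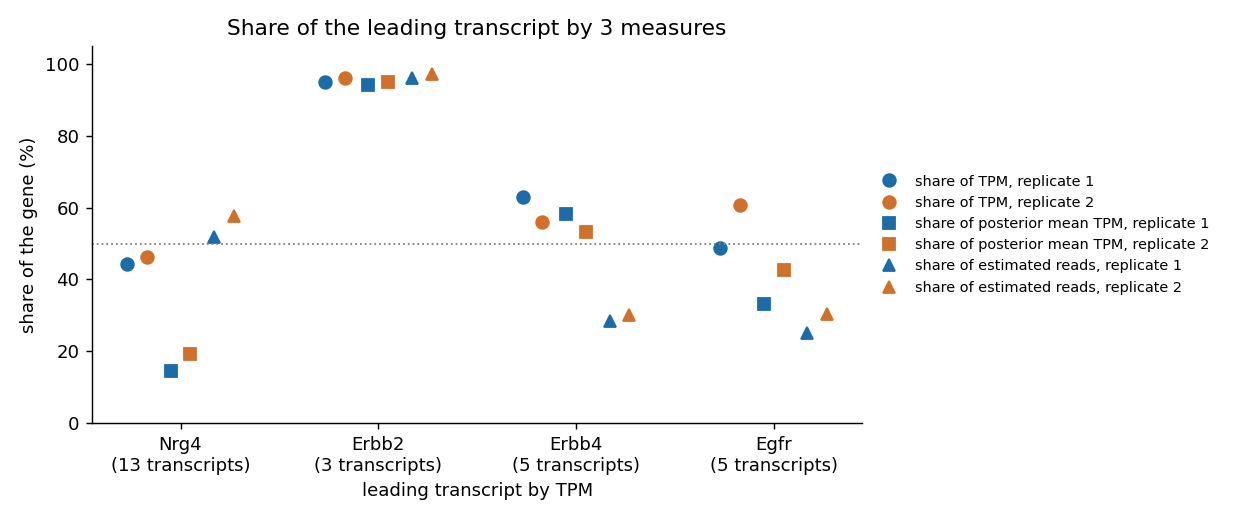
Share (%) of the leading transcript in the 4 members at 1 TPM with several models, by TPM (circles), posterior mean TPM (squares) and estimated reads (triangles), in replicates 1 and 2. The Erbb2 transcript stays above all others by each measure, whereas the JM-b model of Erbb4 passes 50% by TPM and holds 28.6% and 30.1% by reads.

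The 2 libraries were compared on read counts scaled by TMM, edgeR's method, as log2 ratios of replicate 1 over replicate 2. Each side is 1 library, so there is no replicate check and no p-value. None of the 7 members with a mean of at least 50 reads was 2-fold apart, where 1.01% of the 13763 genes with as many reads were (0.269% at least 2-fold higher and 0.741% at least 2-fold lower in replicate 1). The median absolute log2 ratio was 0.10 over the members and 0.10 over all these genes.

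Egfr differed most. It had 323 reads in replicate 1 and 251 in replicate 2, a log2 ratio of 0.41 with a 95% exact binomial interval of 0.17 to 0.65 that covers counting error only. Of all genes tested, 6.95% were at least as far from 0. Among the markers of other cells, 6 of 8 epicardial and mesenchymal genes were higher in replicate 1 (median log2 ratio 0.24), with summed levels of 359 and 356 TPM. They were Aldh1a2 at 0.49, Upk3b at 0.47, Pdgfra at 0.42, Wt1 at 0.36, Tbx18 at 0.13 and Tcf21 at 0.04. Postn at −0.01 and Sox9 at −0.05 went the other way. The lung and foregut list had a median log2 ratio of 0.25 and summed levels of 78.4 and 78.6 TPM. Of its 7 genes counted well enough, 6 were higher in replicate 1, with Nkx2-1 furthest at 0.88. Sftpc at −0.11 went the other way. Endocardial and endothelial markers had a median of 0.09 (7 of 8 above 0). Hepatocyte markers had a median of −2.54 (0 of 11 above 0). Macrophage markers had a median of 0.33 (4 of 5 above 0, summed at 126 and 143 TPM). Erythroid markers had a median of 0.81 (4 of 6 above 0, summed at 36740 and 22265 TPM), and 4 of them were at least 2-fold apart, Hba-x and Hbb-bh1 higher and Klf1 and Gata1 lower in replicate 1. Neural crest, Schwann and autonomic neuron markers had a median of 0.16 (2 of 4 above 0). Cardiomyocyte markers had a median of 0.002 (4 of 7 above 0). The part of these cells in the Egfr value was not tested.

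For the other members the counting interval included 0. Erbb2 had a ratio of 0.04 with an interval of −0.01 to 0.10, Hbegf −0.02 with −0.19 to 0.14, Erbb4 −0.08 with −0.24 to 0.07, Erbb3 −0.10 with −0.28 to 0.07, Nrg1 −0.15 with −0.52 to 0.22 and Nrg4 −0.30 with −0.89 to 0.27. Spike-in RNA took 5.96% of reads in replicate 1 and 2.56% in replicate 2, and the deposited TPM counts them in its total. The median log2 TPM ratio was −0.15 over all genes tested. With spike-ins left out of the TPM sum, Erbb2 stood at 42.1 and 42.3 TPM and Hbegf at 9.73 and 10.2 TPM.

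**Figure D4:**
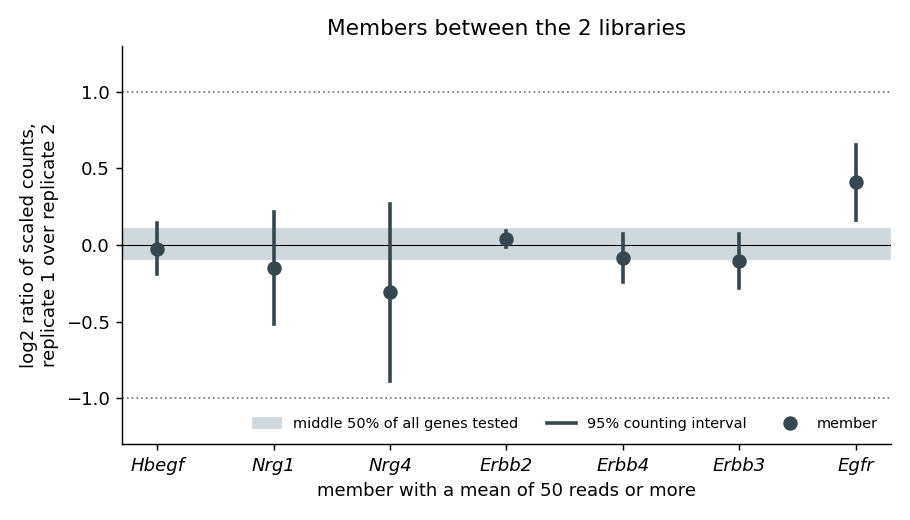
Log2 ratio of scaled counts, replicate 1 over replicate 2, of the 7 members with a mean of at least 50 reads, with 95% counting intervals as bars, the middle 50% of all genes tested as a grey band and dotted lines at 2-fold. Egfr at 0.41 is the member whose bar does not reach 0.

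Erbb3 is known in the embryo from neural crest cells and the Schwann cell lineage as well as from cushion mesenchyme. Markers of the first kind were near the floor: 4 of 10 reached 1 TPM in both libraries, with a median of 0.395 TPM and summed levels of 15.3 and 18.0 TPM. Sox10, the defining factor of these cells, was at 0.34 and 0.35 TPM, and Foxd3 had 0.02 and 0 TPM. Endocardial and endothelial markers, the cells in which Nrg1 is known to be made, all reached 1 TPM (8 of 8, summed at 319 and 335 TPM), with Nfatc1, an endocardial factor, at 15.6 and 16.4 TPM. Hepatocyte markers summed to 103 and 540 TPM, and all 11 with enough reads were at least 2-fold lower in replicate 1. The part of these cells in any member's value was not tested.

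Other genes of the pathway were taken from 6 lists with 74 genes, all matched. In total 67 reached 1 TPM in both libraries, against the 57.3% of protein-coding genes given above.

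The 6 other EGF-family ligand genes were low, like most of the neuregulins, with a median of 0.355 TPM and 2 at 1 TPM in both libraries. Tgfa, a ligand of EGFR, was at 3.25 and 4.15 TPM, and Btc (betacellulin), which binds EGFR and ErbB4, was at 1.46 TPM in both. Egf was at 0.56 and 0.50 TPM and Areg at 0.16 and 0.20 TPM. Epgn and Ereg were lowest, with means of 0.095 and 0.060 TPM. Hbegf at a mean of 9.17 ± 0.74 TPM (SD, n = 2) thus lay above every one of the 10 other ligand genes as measured, with Nrg1 counted on 1 model only.

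Genes that release or mature the membrane-bound ligands were all detected, 8 of 8 with a median of 18.8 TPM. Adam10 led at 49.8 and 57.6 TPM, followed by Adam9 at 30.1 and 35.6 TPM. Rhbdf1 (iRhom1, which carries ADAM17 to the cell surface) was at 26.6 and 28.6 TPM and Adam19 at 19.2 and 19.8 TPM. Rhbdf2 at a mean of 6.05 and Adam12 at 2.45 TPM were lowest. Adam17, the sheddase that cuts HB-EGF and the JM-a form of ErbB4, was at 17.4 and 18.7 TPM; it was named for this role and not by its rank.

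Receptor-proximal signalling genes were likewise all present (16 of 16), and their median was 13.4 TPM. The adaptor genes Crk at 65.9 and 76.2 TPM, Grb2 at 68.6 and 69.2, Shc1 at 49.2 and 54.1 and Nck1 at 35.2 and 46.2 TPM led. Sos1, an exchange factor for Ras, had a mean of 1.67 TPM and Pik3cb, a PI3-kinase catalytic subunit, 1.20 TPM.

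Of 17 genes that restrain or turn over ErbB receptors, 16 reached 1 TPM in both libraries, with a median of 6.94 TPM. The ubiquitin ligase gene Nedd4 was far above the rest at 364 and 393 TPM. Spry2 (a Sprouty inhibitor of Ras signalling) followed at 39.9 and 48.6 TPM, then Dusp6 (an ERK phosphatase) at 30.7 and 31.5 and the ligase gene Itch at 26.4 and 28.2 TPM. The lowest were Spred2 at a mean of 3.40 TPM and Lrig3, with 0.98 and 1.21 TPM in the 2 libraries.

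The 11 genes listed for ErbB4 processing and its nuclear partners all reached 1 TPM, with a median of 19.4 TPM. Psenen and Ncstn, subunits of the gamma-secretase that releases the ErbB4 intracellular part, were at 90.2 and 100.4 TPM and at 89.4 and 94.2 TPM. The co-repressor gene Ncor1 stood at 78.1 and 87.8 TPM. Wwox at a mean of 7.55 and Stat5a at 4.38 TPM were lowest.

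Genes of trabeculation and endocardial signalling were at 1 TPM in both libraries for 14 of 16, and their median was 21.5 TPM. Nppa (atrial natriuretic peptide, also made in trabecular muscle) led at 3566 and 4645 TPM, ahead of Cited1 at 501 and 574, Gja5 (connexin 40) at 87.0 and 103 and Vcan (versican) at 47.3 and 59.1 TPM. Has2, a hyaluronan synthase gene, was at 0.40 and 0.35 TPM, and Etv2, an early endothelial factor, at 0.29 and 0.27 TPM. No gene of the 6 pathway lists with enough reads was 2-fold apart between the libraries.

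**Figure D5:**
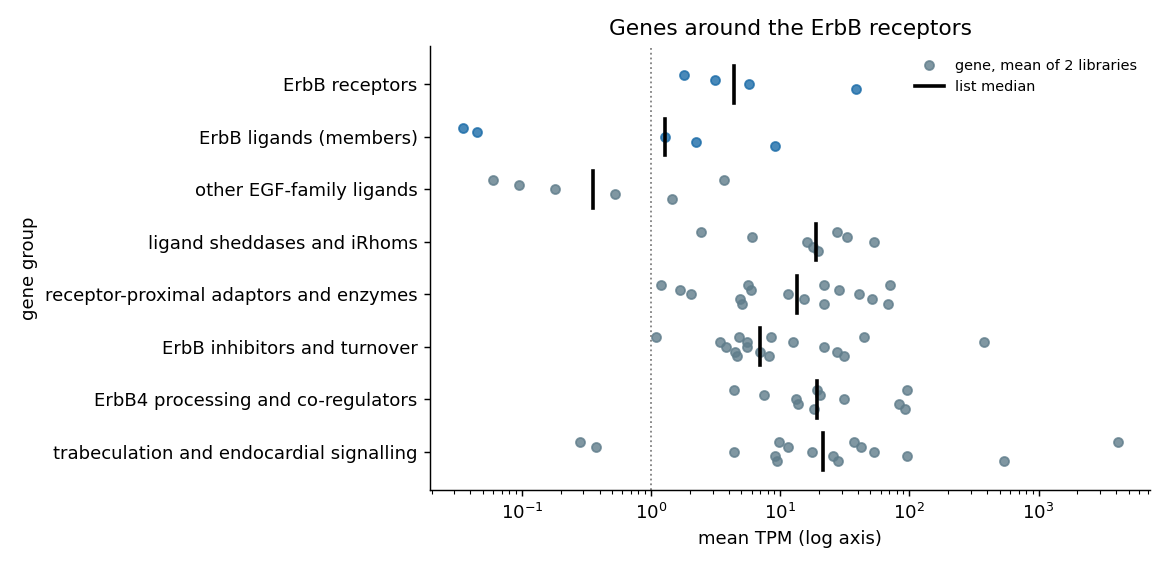
Mean TPM over the 2 libraries on a log axis for the 4 receptor genes, the 5 ligand genes and the genes of the 6 pathway lists, 1 point per gene, with black bars at the median of each row and a dotted line at 1 TPM. The other EGF-family ligands have a median of 0.355 TPM, below the medians of the 5 lists that follow, which lie between 6.94 and 21.5 TPM.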

How the data were processed

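Total RNA-seq was made from 10 ng of size-selected RNA with spike-ins, per the labels. The authors deposited estimated counts and TPM per gene and transcript, made from transcriptome alignments on mm10 with annotation M4, per the file descriptions (aligner and quantifier: not given in the sources used here). The percent columns are, per the file headers, each transcript's share of its gene's TPM. The deposited TPM counts spike-ins in its total, and the level of its credibility intervals is not stated. Estimated reads totalled 36733400 and 36060765 in replicates 1 and 2. Identifiers without version matched GENCODE M21 (same assembly) for 42462 of 43346 genes. Sequences are from the M21 transcripts.

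Estimated counts were rounded and scaled with edgeR 4.0.16 (TMM; DESeq2 1.42.0 as alternative) in R 4.3.3, with 0.5 added and a mean count of at least 50. Other steps used Python 3.11.15, pandas 2.3.3 and scipy 1.17.1. The ratios were also computed on simulated counts with known folds and counting error only, which cannot show how 2 real libraries differ. Named genes were the members, and of each list up to the 4 highest and 2 lowest genes; 1 gene this rule names is not reported here. Markers named beside Egfr, Erbb3 and Nrg1 were chosen after their values were seen. With 2 libraries no pattern across samples was compared, and no test can pass 0.05. Members and lists were chosen with earlier results of these data known. The labels call the replicates biological.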

Additional observations from a re-analysis of the deposited data

How the results depend on the processing

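The count of 7 members at 1 TPM was the same with a threshold of 0.5 TPM, by posterior mean, without spike-ins in the sum, by the lower interval bound and in either library alone (7 and 7), and was 2 at a threshold of 5 TPM (43.8% of protein-coding genes). Of 7 neighbouring pairs 4 were called, against 3 by a 2-fold rule and 4 to 5 in a single library. Neighbours were set by the order of these same TPM values, and the share called over other gene pairs was not computed. The calls of Hbegf over Nrg1 and of Erbb4 over Erbb3 involve incomplete models, which the intervals do not cover. With spike-in totals as the scale 6 of 7 members were 2-fold lower in replicate 1, as was the median gene (log2 ratio −1.29). The background of 139 genes 2-fold apart became 715 with a minimum mean count of 10, 5164 with none and 469 at 1.5-fold. Of the 6 members with several models, 3 had a transcript over 50% in both libraries (Nrg2 on 5 reads in all), against 5 by share of reads, 2 by posterior mean and 4 to 5 in a single library. The JM-b share of Erbb4 was 71.0% over protein-coding models only, 59.9% by posterior mean and 56.0% to 62.9% in a single library. The causes were not tested. Depth limits Nrg2 and Nrg3, with 1 to 6 reads a library. No paired analysis was possible because there is 1 group.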

Other observations

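Inside the long introns of Erbb4, 8 other features (unconfirmed transcripts for the most part, a pseudogene, a small RNA gene and a sense-intronic RNA) are annotated on the same strand with no exon in common with it, and 7 of them had reads. All 7 had more reads in replicate 2, with 43 reads in replicate 1 and 78 in replicate 2 in all, a log2 ratio of scaled counts of −0.81. Single features were near the floor, from 1 against 2 reads (Gm37100) to 15 against 32 reads (Gm37769). The retained-intron model of Erbb4 moved the same way at −1.49 on 9 and 26.2 reads, while the whole gene was at −0.08. These features were singled out after their values were seen. How many intronic features of other genes had more reads in replicate 2 was not computed, so the count shows nothing particular to Erbb4. The annotated antisense gene of Egfr, Egfros, had 7 and 4 reads, and Nrg3os, opposite Nrg3, had none in either library.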
